A study of Caenorhabditis elegans with 8 samples.

Results

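The genes described here belong to the mitochondrial respiratory chain and ATP synthase of Caenorhabditis elegans. They encode subunits of complexes I to V, the electron carrier cytochrome c, an enzyme of ubiquinone synthesis and factors that assemble complex IV. They comprised 36 genes named one by one and 7 more whose symbols begin with nuo-, cox- or atp-, so that 43 of the 5762 genes with introns in the deposited junction table were included. These 43 genes held 127 of the 20324 introns analysed. By complex they were 8 genes of complex I, 4 of complex II, 6 of complex III, 7 subunits of complex IV, 7 assembly factors of complex IV and 9 genes of complex V. Another 2 genes concerned the electron carriers: cyc-2.1 for cytochrome c and clk-1 for ubiquinone synthesis. The gene cox-16 was in the reference annotation but had no intron in the table, and the subunits encoded in mitochondrial DNA were not measured, because their genes have no introns.

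The respiratory chain sits in the inner mitochondrial membrane. Complexes I and II pass electrons from NADH and succinate to ubiquinone, complex III passes them on to cytochrome c, and complex IV passes them to oxygen. The proton gradient built on the way drives ATP synthase, complex V. In this worm, mutations in several of these genes change lifespan and the response to oxygen stress, and they are among the most used models of mitochondrial function.

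The study asked about alternative splicing after depletion of SPK-1, the worm's kinase of serine- and arginine-rich splicing factors. RNA came from whole adults of the wild-type strain N2, with 4 libraries from worms fed E. coli expressing spk-1 double-stranded RNA, called spk-1(RNAi), and 4 from worms fed E. coli with the empty feeding vector L4440, called control. Worms of both groups grew at 20 °C and received the bacteria for 24 h at 25 °C from the fourth larval stage. At least 100 adults were collected per condition, polyadenylated RNA was used, and dUTP marked the strand. Whether the replicates were separate cultures is not in the labels, and every p-value here therefore reflects the spread among these 8 libraries only, which may be technical.

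Every value below is a count of reads that cross an intron, so it describes spliced RNA of genes with introns. Libraries held 2660062 to 40426751 such reads in spk-1(RNAi) and 1821717 to 47299659 in control, and the libraries numbered 1 and 2 were the shallow ones in both groups. Reads over introns of spk-1 itself made up 0.614%, 6.25%, 0.178% and 0.277% of junction reads in spk-1(RNAi) libraries 1 to 4, against 0.0509%, 0.0464%, 0.0528% and 0.0628% in control libraries 1 to 4. The target's reads were thus higher in all 4 spk-1(RNAi) libraries and give no measure of depletion. Whether the extra reads came from worm mRNA or from the fed RNA was not tested. Group names are those of the labels. Libraries varied with their replicate number in both groups alike, with numbers 3 and 4 close to each other, so values are given with the replicate number and ratios are formed within numbered pairs.

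The question put to the 43 genes was whether spk-1(RNAi) changed the reads over their introns. No member of any complex passed the test. In edgeR's quasi-likelihood test over all genes with group as the only term, 0 of 43 members had an adjusted p under 0.05 and 0 had an unadjusted p under 0.05. Over all 5762 genes the same test called 0 (0%), with 54 genes (0.937%) at an unadjusted p under 0.05. Log2 fold changes of spk-1(RNAi) over control ran from -0.59 for cox-17 to 0.46 for nuo-2, with a median of 0.05 over the members and -0.0045 over all genes. Of the members, 25 lay above 0 and 18 below, while 49% of all genes lay above 0. No member's 4 spk-1(RNAi) libraries lay wholly above or below its 4 control libraries, whereas 1.04% of all genes were separated in this way. DESeq2 called 0 members and 0 genes (0%) without the replicate number, with 0 members and 84 genes (1.46%) at an unadjusted p under 0.05.

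That fit had little reach in simulated counts. There it recovered 0% of 200 genes changed 2-fold, whereas the fit with replicate number as a block recovered 92%, with 15 false calls. The simulated libraries of one number shared a gene's level, and their spread was taken from the blocked fit. The simulation thus followed the blocked model, and recovery where libraries depart from it was not tested. The blocked edgeR fit also called 0 members and 0 of all genes (0%). Its log2 fold changes over all genes ran from -1.37 to 3.38, so changes above 2-fold in size also went uncalled. The target spk-1, with a higher share of reads in all 4 spk-1(RNAi) libraries, was among the genes not called. At an unadjusted p under 0.05 the blocked edgeR fit had 3 members (6.98%), nuo-2 and cox-14 higher and cox-17 lower in spk-1(RNAi). Over all genes it had 553 (9.60%, made up of 5.09% higher and 4.51% lower). With the same block DESeq2 called 51 genes (0.885%), 0 of them members. In the blocked edgeR fit the 95% interval of the log2 difference lay within ±1 for 43 of 43 members and within ±0.5 for 29 of 43. The fold change itself was under 0.3 in size for 39 of 43 members (90.7%), against 82.0% of all genes. The members also had more reads per intron at the median than all genes, and the part of this in the contrast was not tested.

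The 43 genes together took a share of the junction reads that ran between 1.2996% and 1.54% over spk-1(RNAi) libraries and between 1.32% and 1.59% over control libraries. On the scale of CPM, counts scaled to a common library total by edgeR's TMM method, the sum was 14715 ± 2769 in spk-1(RNAi) and 14694 ± 3894 in control (SD, n = 4 each). Divided by its same-numbered control, the sum in spk-1(RNAi) libraries 1 to 4 was 0.928, 1.29, 0.918 and 0.964. The sum was higher in spk-1(RNAi) in pair 2 and lower in the other 3 pairs, and the same held for complexes III, IV and V.

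**Figure D1:**
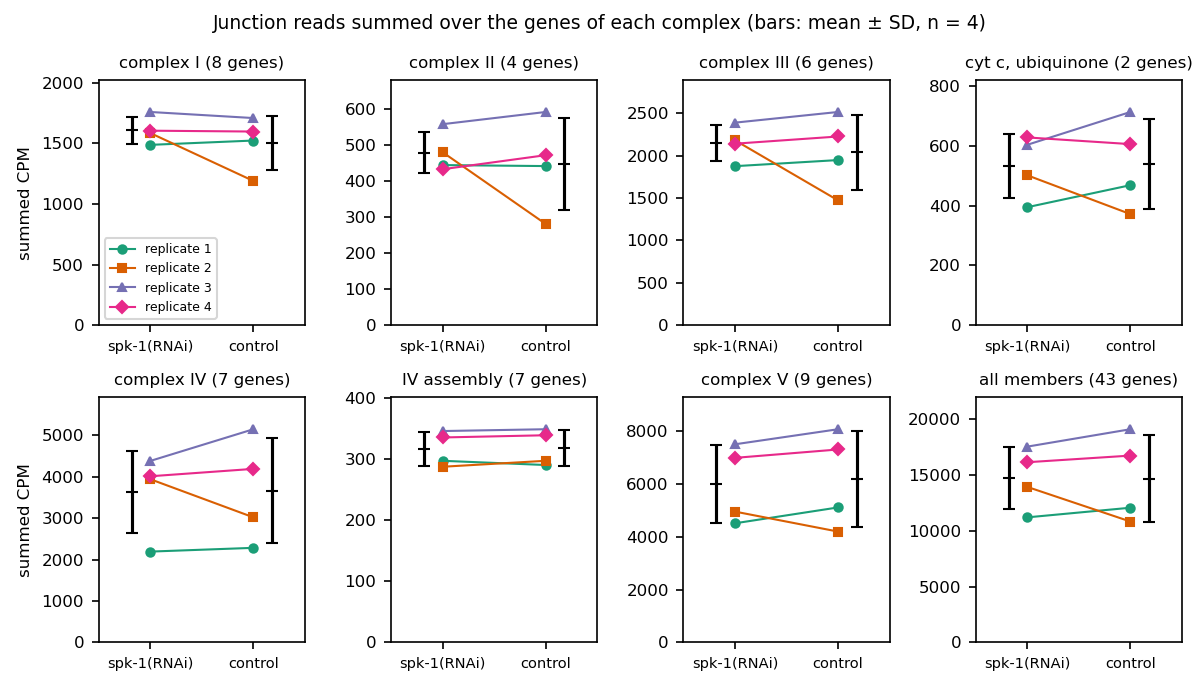
Junction reads summed over the genes of each complex, in TMM-scaled CPM, for 4 spk-1(RNAi) libraries (left in each panel) and 4 control libraries (right); lines join libraries of one replicate number and black bars are the mean ± SD. In complexes I to V the line of replicate 2 goes down towards control, and no other replicate falls as steeply.

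Levels of different genes were set side by side as CPM per listed intron, averaged over all 8 libraries. On this scale the members covered the range from cox-7C, a small subunit of complex IV, at 587 CPM per intron (rank 117 of 5762 genes), to cox-10, an enzyme of heme A synthesis, at 7.19 CPM per intron (rank 5466). After cox-7C came cyc-2.1, which encodes cytochrome c, at 513, then the beta and alpha subunits of ATP synthase, atp-2 at 459 and atp-1 at 444. The median over the 43 members was 76.5 CPM per intron, against 21.3 over all genes. Among complexes I to V, the subunits of complex IV had the highest median at 225, followed by complex V at 117, while complexes I, II and III had 51.6, 47.5 and 55.5. The factors that assemble complex IV stood far below the subunits they build in, with a median of 21.5 CPM per intron. The 8 libraries of neighbours in this order overlapped in 42 of 42 neighbouring pairs, and over all 903 pairs of members they overlapped in 368. The order also depends on which introns were listed. Both cox-7C and cyc-2.1 had 1 listed intron each. In isp-1 the intron with the most reads had 4.25 times those of the lowest in spk-1(RNAi).

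**Figure D2:**
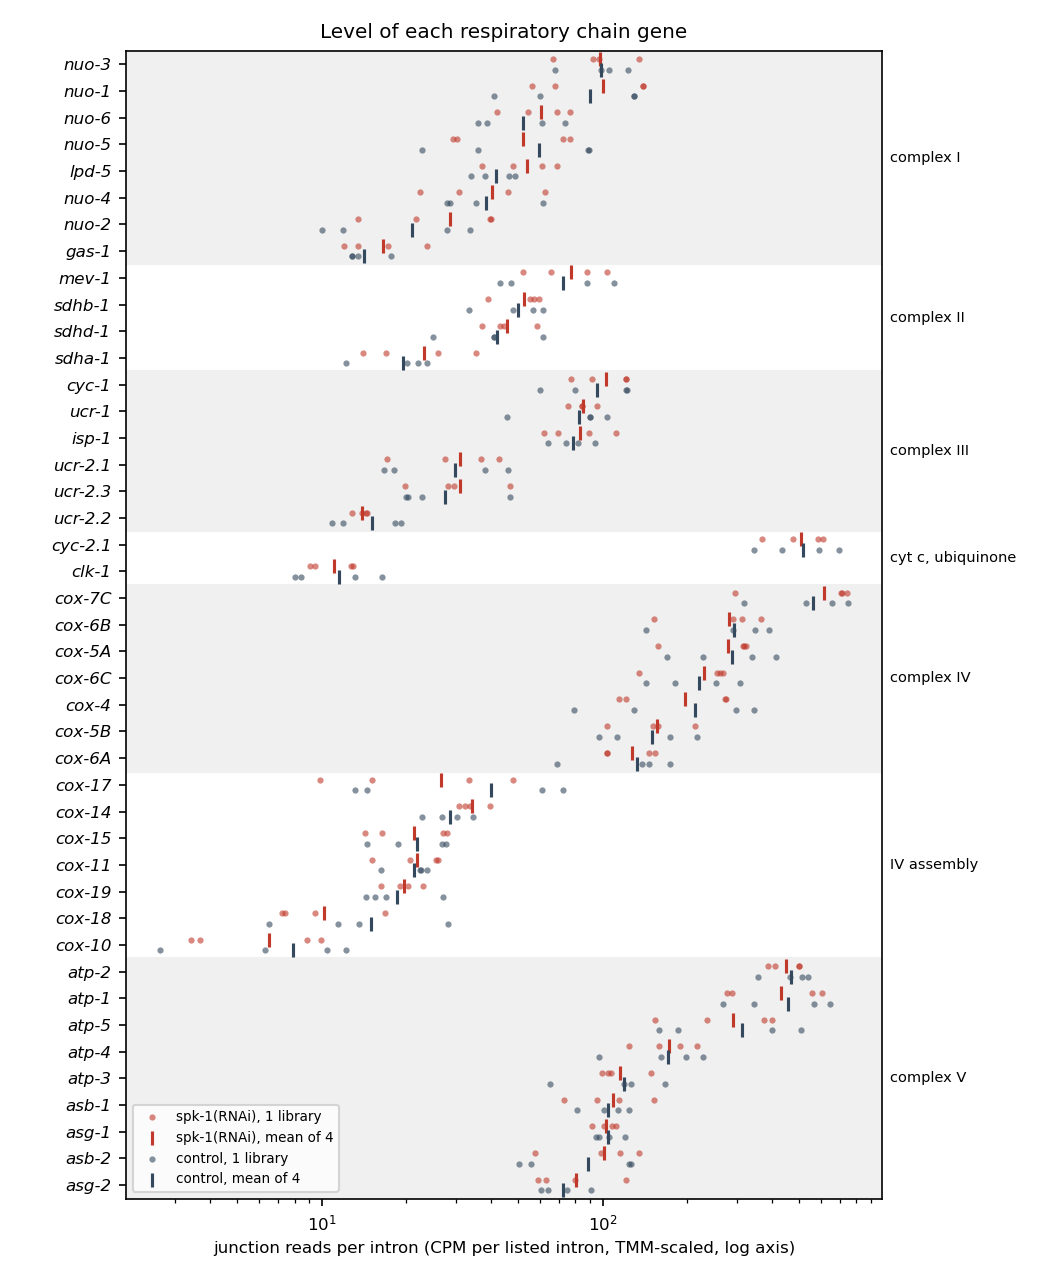
TMM-scaled CPM per listed intron (log axis) for each of the 43 genes, by complex; red points are spk-1(RNAi) libraries above the dark control libraries, and vertical ticks are means of 4. The colours overlap in every row. By their medians, complex IV subunits and complex V lie to the right of complexes I to III and of the assembly factors. Some genes of complex V, such as asg-2 and asb-2, lie among those of complexes I and III.

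Complex I, the NADH dehydrogenase, held the member with the highest log2 difference. The gene nuo-2, a core subunit of its iron-sulfur arm, had 118.9, 119.8, 64.8 and 40.3 CPM in spk-1(RNAi) libraries 1 to 4, against 100.8, 84.03, 35.7 and 30.2 CPM in control libraries 1 to 4. It was higher in 4 of 4 pairs, yet libraries 3 and 4 of both groups lay below libraries 1 and 2, so the groups overlapped. The log2 difference was 0.51 ± 0.13 (SE) in the blocked edgeR fit, with a 95% interval of 0.22 to 0.80, an unadjusted p of 0.00267 and an adjusted p of 0.244, and the adjusted p of DESeq2 with the block was 0.085. In the blocked fits with 1 pair left out the difference stayed between 0.38 and 0.60 on the log2 scale.

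The accessory subunit nuo-6, in which a worm mutation lowers respiration and lengthens life, was the other complex I gene higher in 4 of 4 pairs. It had 153, 137, 109 and 84.2 CPM in spk-1(RNAi), against 146, 122, 71.8 and 77.5 CPM in control. The blocked edgeR difference was 0.24 ± 0.12 (SE, log2) with an unadjusted p of 0.0697. Over all 43 members, 3 genes were higher in 4 of 4 pairs (6.98%, against 9.63% of all genes) and 0 were lower in 4 of 4 pairs (against 9.55% of all genes).

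At the highest complex I level per intron stood nuo-3, an accessory subunit, with 291, 405, 276 and 199 CPM in spk-1(RNAi), against 315, 370, 296 and 203 CPM in control. Its values followed the replicate number, and it differed by -0.03 on the log2 scale in the blocked fit. The core subunit gas-1, whose mutation makes worms sensitive to oxygen and volatile anaesthetics, had 51.6, 71.0, 36.0 and 40.3 CPM in spk-1(RNAi), against 52.9, 38.4, 40.5 and 38.6 CPM in control. Its highest library was spk-1(RNAi) 2, control 1 stood above the other control libraries, and gas-1 was the lowest complex I gene per intron. Of the remaining complex I genes, the NADH-binding subunit nuo-1, the large iron-sulfur subunit nuo-5, the accessory subunit nuo-4 and lpd-5, an accessory subunit of the electron-input arm, had blocked log2 differences between -0.12 for nuo-5 and 0.32 for lpd-5.

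Complex II, succinate dehydrogenase, links the chain to the tricarboxylic acid cycle. Its cytochrome b large subunit mev-1, whose mutation shortens life and raises oxygen sensitivity, had 104, 130, 207 and 176 CPM in spk-1(RNAi), against 94.2, 85.8, 220 and 176 CPM in control. Apart from pair 2 the groups were nearly equal. The flavoprotein gene sdha-1, the iron-sulfur subunit sdhb-1, mev-1 and the small membrane anchor sdhd-1 had blocked log2 differences of 0.08 to 0.21, none with an unadjusted p under 0.05 in edgeR. The gene sdhd-1 had the widest single pair of this complex, with 116 CPM in spk-1(RNAi) 2 and 49.7 CPM in control 2, and it was lower in spk-1(RNAi) in pairs 3 and 4.

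Among the genes of complex III, cytochrome c1 (cyc-1) had 386, 459, 604 and 605 CPM in spk-1(RNAi), against 399, 300, 606 and 609 CPM in control. Its libraries of one number were nearly equal in pairs 1, 3 and 4, and pair 2 alone stood apart. The Rieske iron-sulfur protein isp-1, known for a long-lived mutant with slow respiration, had 434, 779, 627 and 484 CPM in spk-1(RNAi), against 445, 571, 656 and 520 CPM in control. It was higher in pair 2 alone.

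The core proteins of complex III are encoded by ucr-1 and by 3 related genes, whose reads the authors' counting could have split where copies are alike. The gene ucr-2.1 had 68.5, 110, 147 and 172 CPM in spk-1(RNAi), against 72.2, 66.9, 185 and 152 CPM in control. Its relative ucr-2.3 ran the other way across replicates, with 188, 118, 113 and 79.0 CPM in spk-1(RNAi), against 188, 90.8, 80.0 and 80.9 CPM in control. The third, ucr-2.2, was the lowest per intron in complex III, with 43.5, 41.8, 38.5 and 43.2 CPM in spk-1(RNAi), against 35.8, 32.5, 57.6 and 54.8 CPM in control. None of the 3 had an unadjusted p under 0.05 in the blocked edgeR fit, and their log2 differences were 0.09, 0.20 and -0.11 for ucr-2.1, ucr-2.3 and ucr-2.2.

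Between the complexes, cytochrome c (cyc-2.1) had 369, 476, 585 and 609 CPM in spk-1(RNAi), against 435, 345, 696 and 589 CPM in control. The gene clk-1 encodes a hydroxylase of ubiquinone synthesis, and its mutants live long and develop slowly. It had 25.8, 25.5, 18.2 and 18.96 CPM in spk-1(RNAi), against 32.6, 26.2, 16.9 and 16.1 CPM in control. Both genes had a blocked log2 difference of almost 0 (-0.00053 for cyc-2.1 and -0.00037 for clk-1), with 95% intervals of -0.31 to 0.31 for cyc-2.1 and -0.44 to 0.44 for clk-1.

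The 7 subunits of complex IV, cytochrome c oxidase, had blocked log2 differences from -0.04 to 0.10 and all had 95% intervals within ±0.5. Its most abundant member per intron, cox-7C, had 295, 704, 739 and 712 CPM in spk-1(RNAi), against 318, 528, 744 and 652 CPM in control. Library 1 of both groups stood lowest here and in the summed reads of the complex, which were 2194, 3943, 4384 and 4014 CPM in spk-1(RNAi), against 2285, 3022, 5151 and 4193 CPM in control. Not every subunit followed the sum: cox-6A had 293 CPM in library 1 of both groups, and control 2 was the lowest control library for cox-4, cox-5B and cox-6A. Of the subunits cox-5A and cox-5B, which are distinct parts of the enzyme and not copies, cox-5A had 474, 969, 957 and 946 CPM in spk-1(RNAi), against 507, 683, 1239 and 1022 CPM in control. The gene cox-5B had 312, 453, 637 and 472 CPM in spk-1(RNAi), against 337, 291, 650 and 522 CPM in control.

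The assembly factors of complex IV spread more widely, from -0.52 for cox-17 to 0.27 for cox-14 in the blocked log2 differences. The copper chaperone cox-17 had 9.88, 15.2, 33.4 and 48.0 CPM in spk-1(RNAi), against 13.1, 14.5, 60.8 and 72.1 CPM in control. It was lower in 3 of 4 pairs, most in pairs 3 and 4, and its level in libraries 3 and 4 stood above that in libraries 1 and 2 in both groups. The blocked edgeR difference was -0.52 ± 0.18 (SE, log2) with an unadjusted p of 0.0164 and an adjusted p of 0.422. Without replicate 3 of both groups the unadjusted p was 0.116, and without replicate 4 of both groups it was 0.0881.

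The assembly factor cox-14 had 159, 130, 135 and 123 CPM in spk-1(RNAi), against 138, 107, 121 and 90.8 CPM in control. It was higher in 4 of 4 pairs, with overlapping groups. The blocked edgeR difference was 0.27 ± 0.11 (SE, log2), with an unadjusted p of 0.0281 and an adjusted p of 0.479, and the unadjusted p was 0.157 without replicate 4 of both groups. Exons of cox-14, and likewise of nuo-1, nuo-3, atp-4 and cox-6B, overlap another gene on the same strand, and whether that touches the reads over their introns was not tested. The remaining assembly factors were the heme A synthesis genes cox-10 and cox-15, the copper delivery genes cox-11 and cox-19, and cox-18, which inserts a subunit into the membrane. In the blocked edgeR fit their log2 differences lay between -0.43 and 0.14, with no unadjusted p under 0.05. Both cox-10 and cox-18 had low levels, and cox-10 had 3.70 CPM in spk-1(RNAi) 2 and 12.2 CPM in control 2.

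**Figure D3:**
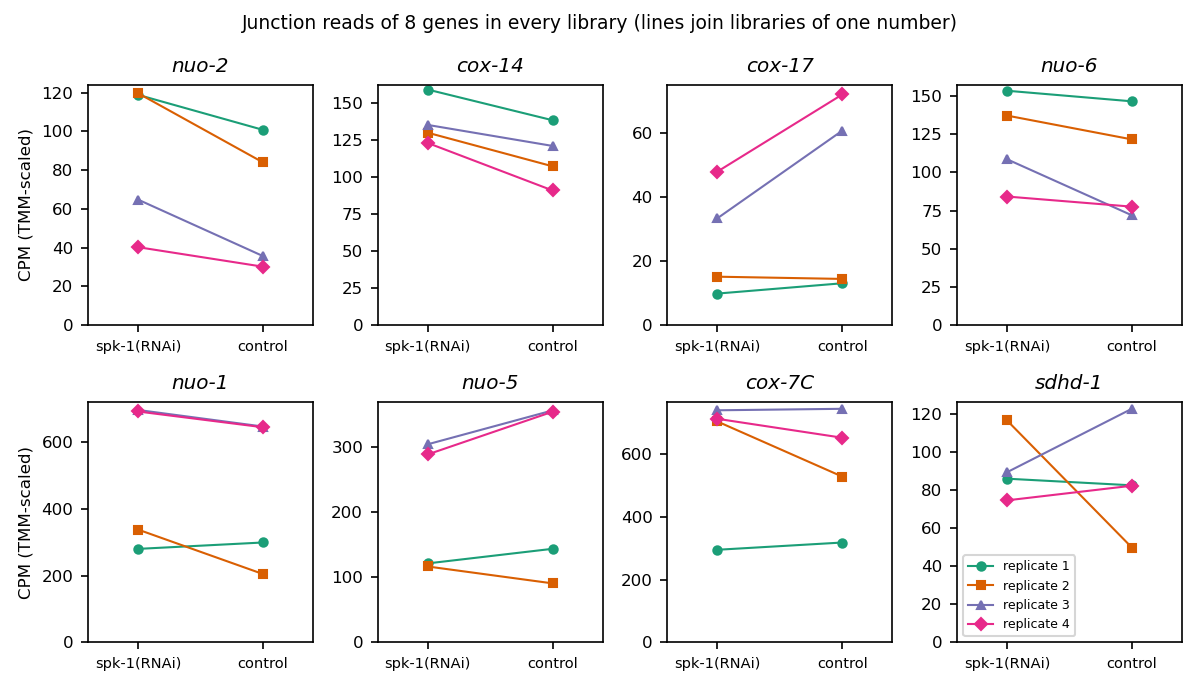
TMM-scaled CPM of 8 genes in 4 spk-1(RNAi) libraries (left in each panel) and 4 control libraries (right), with lines joining libraries of one replicate number. For nuo-2, cox-14 and nuo-6 all 4 lines go down towards control, for cox-17 the lines of replicates 3 and 4 go up, and for nuo-1 and nuo-5 the height follows the replicate number.

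Complex V, ATP synthase, contributed the most junction reads, 5995 ± 1479 CPM in spk-1(RNAi) and 6178 ± 1821 CPM in control (SD, n = 4 each). Its catalytic beta subunit atp-2 had 1647, 1546, 1995 and 2005 CPM in spk-1(RNAi), against 1863, 1429, 2049 and 2152 CPM in control. It was slightly lower in spk-1(RNAi) in all pairs but pair 2, as were the alpha subunit atp-1 and the stalk subunits atp-3 and atp-5. The 9 genes had blocked log2 differences from -0.08 for atp-1 to 0.23 for asb-2.

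In complex V, stalk subunit b and subunit g each have a pair of genes, of which asb-1 and asg-2 are known as the germline forms. The germline form asb-1 had 291, 380, 608 and 458 CPM in spk-1(RNAi), against 325, 404, 497 and 452 CPM in control, and its somatic counterpart asb-2 had 172, 295, 344 and 405 CPM in spk-1(RNAi), against 166, 151, 372 and 377 CPM in control. In pair 2 the log2 ratio was 0.96 for asb-2 and -0.09 for asb-1. For subunit g, asg-2 had 240, 362, 189 and 176 CPM in spk-1(RNAi), against 181, 272, 225 and 192 CPM in control, and asg-1 had 91.5, 112, 108 and 100.8 CPM in spk-1(RNAi), against 120, 105, 96.8 and 94.3 CPM in control. The gene asg-1 had the steadiest level of these 4 across libraries, and no member of either pair had an unadjusted p under 0.05 in edgeR.

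Within single pairs, the members moved together in pair 2. There 37 of 43 members (86.0%) were higher in spk-1(RNAi) than in control, with a median log2 ratio of 0.41, although 50.0% of all genes were higher and their median was -0.00043. All 8 genes of complex I, 4 of complex II, 6 of complex III and 7 subunits of complex IV were higher, as were 8 of 9 genes of complex V, but only 3 of 7 assembly factors. In pairs 1, 3 and 4 the count of higher members was 14, 16 and 18 of 43, and the medians were -0.08, -0.08 and -0.02. One pair has no replicate, so this is a description of those libraries.

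Most muscle, cuticle and intestine markers were also higher in spk-1(RNAi) in pair 2, whereas most germline markers were not. Some markers were also higher in other pairs, where most members were lower. Of 14 muscle markers, 11 were measured, and 10 of these 11 were higher in spk-1(RNAi) 2 than in control 2, with a median log2 ratio of 1.21. Their summed level was 6910 CPM in spk-1(RNAi) 2 and 3064 CPM in control 2, within ranges over libraries of 4412 to 12598 CPM in spk-1(RNAi) and 3064 to 11922 CPM in control. The 4 measured cuticle markers were all higher in that pair with a median of 0.98, the 10 intestine markers had a median of 0.39 with 9 higher, and the 17 germline markers had a median of -0.07 with 6 higher. In pairs 1, 3 and 4, muscle markers were higher in 10, 7 and 11 of 11, with medians of 0.29, 0.04 and 0.14, intestine markers in 6, 9 and 8 of 10, cuticle markers in 3, 2 and 4 of 4, and germline markers in 5, 12 and 4 of 17. In the blocked edgeR fit 11 of 11 muscle markers had a positive log2 difference, with a median of 0.38, and 4 of them had an unadjusted p under 0.05. Intestine markers were positive in 10 of 10 (median 0.17, 2 with such a p) and cuticle markers in 3 of 4 (median 0.36, 2 with such a p). Germline markers were positive in 8 of 17, with a median of -0.0029 and 1 such p, for a lower gene. Over all genes 51.2% were positive and 9.60% had such a p. DESeq2 with the block called 1 of 10 intestine markers and 1 of 4 cuticle markers, against 0.885% of all genes. It called 0 muscle and 0 germline markers. No measured marker was at 0 in any library, 1 of 8 neuron markers was measured and 0 of 7 sperm markers. Control 2 was also the shallowest library and spk-1(RNAi) 2 the one with the highest share of spk-1 reads. The part of these differences in the members' values was not tested, and in whole worms fewer cells of a type and less RNA per cell cannot be told apart. Without replicate 2 of both groups the median blocked log2 difference of the members was -0.07, against 0.04 with it.

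**Figure D4:**
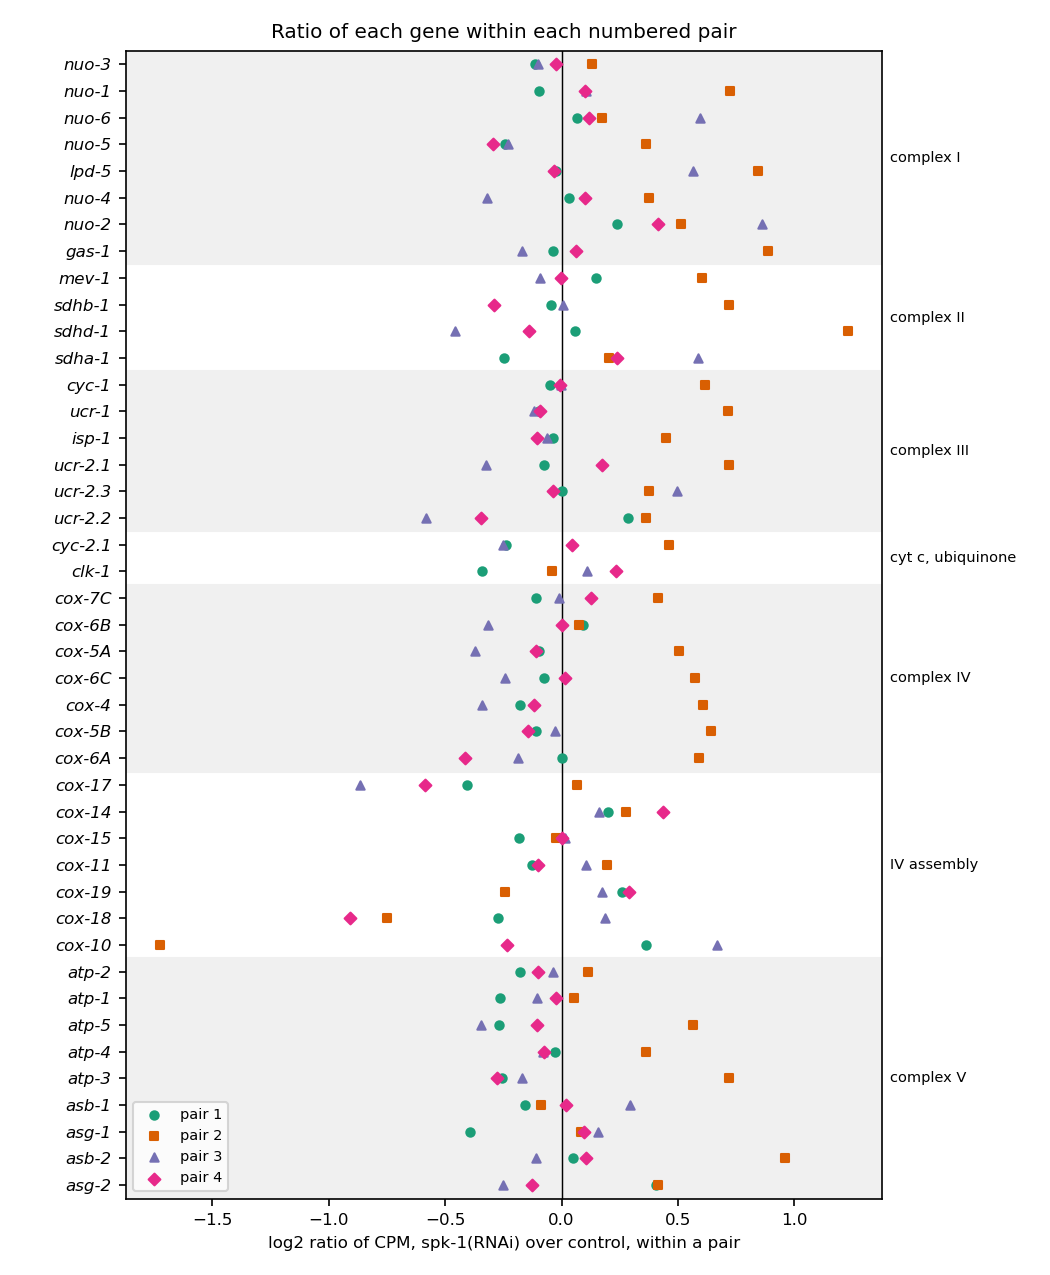
Log2 ratio of TMM-scaled CPM, spk-1(RNAi) over control, for each of the 43 genes within each of the 4 numbered pairs, by complex. Orange squares, pair 2, lie right of 0 for 37 of 43 genes, while pairs 1, 3 and 4 scatter on both sides of 0.

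The largest differences among the members ran between replicate numbers, in both groups alike. In 17 of 43 members (39.5%) every library numbered 3 or 4 lay above every library numbered 1 or 2, and in 4 members (9.30%) every one lay below. Over all genes the shares were 25.1% and 21.9%. The 4 lower members were nuo-2, nuo-4, nuo-6 and clk-1, and the 17 higher included 6 of 9 genes of complex V.

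Subunits of complex I thus ran in opposite directions across numbers. Libraries 3 and 4 over libraries 1 and 2 gave a mean log2 difference of 1.48 for nuo-5 and 1.28 for nuo-1, against -1.36 for nuo-2 and -0.87 for nuo-4. Elsewhere the difference was 1.99 for cox-17, 1.44 for cox-4 and 1.21 for atp-5. The labels name no batch for these libraries, and they differ in depth by replicate number, so number, depth and any shared handling cannot be told apart.

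Introns were then taken one by one. The 127 introns of members had a median length of 57 bases, against 58 for all introns, and ran from 42 to 3104 bases. In edgeR's quasi-likelihood test with group only, 0 member introns were called and 0 had an unadjusted p under 0.05, and over all 20324 introns 0 were called (0%) and 173 had an unadjusted p under 0.05 (0.851%). With the replicate block 14 of all introns were called (0.0689%), 0 of them in members, and 5 member introns (3.94%) had an unadjusted p under 0.05, against 8.40% of all introns. They were the introns after exons 2 and 4 of nuo-2, after exon 3 of lpd-5, after exon 7 of nuo-4 and the listed intron of cox-17. No member intron separated the groups, as 0.856% of all introns did.

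The intron after exon 4 of nuo-2, at chromosome I, 6530563 to 6531197 (ce10, minus strand), differed by 0.61 ± 0.22 (SE, log2), and that after exon 2, at chromosome I, 6531789 to 6531837, by 0.78 ± 0.25. The intron between them, after exon 3, at chromosome I, 6531389 to 6531618, differed by 0.23 ± 0.19. All 3 nuo-2 introns thus had a positive difference in the blocked fit, and the test of unequal change within nuo-2 gave an unadjusted p of 0.256 in edgeR's diffSpliceDGE with the block. The intron of cox-17, at chromosome III, 191089 to 191763 (plus strand), carried all its reads.

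Whether reads shifted between introns of a member was tested in the 33 members with at least 2 introns, the measure closest to the study's question on splicing. In diffSpliceDGE of edgeR, 0 of 33 members were called and 0 had an unadjusted p under 0.05, with 1 of 4370 genes called (0.0229%) and 10 genes (0.229%) at an unadjusted p under 0.05. With the replicate block 3 genes were called (0.0686%), 0 of them members, and 1 member, nuo-4, had an unadjusted p of 0.0279 (adjusted p 0.798), against 5.70% of all genes with an unadjusted p under 0.05. No member had introns that shared a donor or an acceptor, so alternative splice sites could not be compared in these genes.

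In nuo-4 the intron after exon 7, at chromosome III, 7156399 to 7156796 (ce10, minus strand), held 21.1%, 31.9%, 10.6% and 16.5% of the gene's junction reads in spk-1(RNAi), against 18.4%, 23.2%, 8.27% and 7.54% in control. Its share was higher in spk-1(RNAi) in every pair, and it was relatively higher by 0.53 on the log2 scale, with an unadjusted p of 0.0106 in the blocked diffSpliceDGE test. In cox-5B the first intron, at chromosome I, 9788856 to 9788999 (plus strand), held 2.13%, 3.59%, 19.5% and 18.1% of the reads in spk-1(RNAi), against 3.49%, 4.98%, 25.8% and 21.5% in control. It was lower in spk-1(RNAi) in every pair, with a log2 difference of -0.48 relative to the gene as a whole in that test (unadjusted p of 0.0286). These were 2 of 117 member introns with such a p, against 2.97% of all introns tested, and neither passed adjustment in edgeR.

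The profile of reads across the introns of a gene varied with the replicate number. In isp-1 the first listed intron, after exon 2, held 14.5%, 47.9%, 23.7% and 24.4% of the gene's junction reads in spk-1(RNAi), against 18.4%, 59.9%, 26.3% and 24.4% in control. In ucr-1 the intron after exon 1 held 5.96%, 10.02%, 29.8% and 34.01% in spk-1(RNAi), against 5.09%, 11.5%, 29.8% and 32.2% in control. In isp-1 both libraries numbered 2 stood above the other 6, and in ucr-1 the libraries numbered 3 and 4 stood above those numbered 1 and 2, in both groups. Numbers 3 and 4 were close to each other in both genes.

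To put this in one measure, the part of a gene's reads that would have to move between introns to turn one library's profile into another's was computed in percentage points. Its median over the 33 members was 2.82, 7.75, 6.58 and 3.16 points between the spk-1(RNAi) and control libraries of numbers 1, 2, 3 and 4. Between libraries of one group it was 4.09 to 21.1 points, and the low end was libraries 3 and 4, which lay 5.48 points apart in spk-1(RNAi) and 4.09 points apart in control. In 33 of 33 members the mean over the 4 comparisons within numbers was smaller than that over the 12 comparisons within groups, and the same was found in 94.0% of all 4370 genes with at least 2 introns. Most comparisons within groups set a library numbered 1 or 2 against one numbered 3 or 4. Across groups, spk-1(RNAi) 3 lay 5.02 points from control 4, and spk-1(RNAi) 4 lay 5.95 points from control 3. The measure thus does not tell numbers 3 and 4 apart. The libraries share a number, depth and perhaps handling, and counting error adds to the values of the shallow ones.

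**Figure D5:**
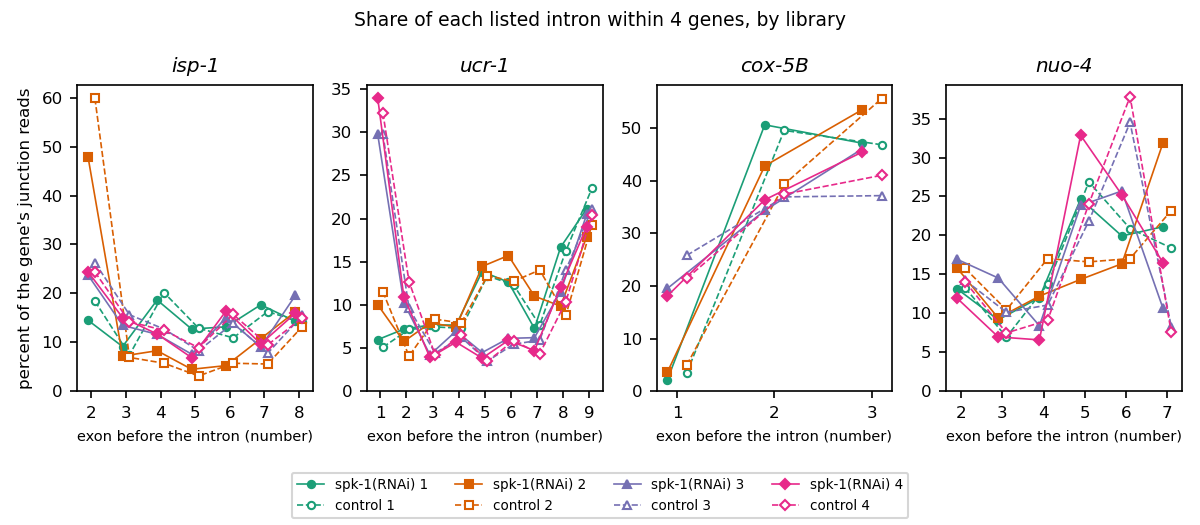
Percent of a gene's junction reads at each listed intron, numbered by the exon before it, for isp-1, ucr-1, cox-5B and nuo-4; colour and marker give the replicate number, solid lines with filled markers are spk-1(RNAi) and dashed lines with open markers are control. In isp-1 the libraries of replicate 2 lie at 47.9% and 59.9% for the first listed intron and the others between 14.5% and 26.3%, and in ucr-1 and cox-5B replicates 3 and 4 of both groups lie above replicates 1 and 2 for the first intron.

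The authors' deposited table gives a p-value for each intron. Of 127 member introns, 9 in the authors' deposited table had a p under 0.05, against 6.02% of all introns. The lowest of these in the authors' deposited table was 0.00415 for the intron after exon 4 of clk-1, at chromosome III, 5278932 to 5279051 (ce10, plus strand). In the counts this intron was lower in spk-1(RNAi) in 4 of 4 pairs, with a blocked edgeR log2 difference of -0.39 ± 0.29 (SE) and an unadjusted p of 0.190. In the authors' deposited table of exon bins, 38 members had 296 bins under their own name, and 0 of these had an adjusted p under 0.05, against 0.00355% of all bins. One member bin (0.986% of all bins had a p under 0.05), the seventh of nuo-1, had an unadjusted p of 0.000477 in the authors' deposited table, with an adjusted p of 1 and a mean signal of 9.57, where the highest bin of nuo-1 had 4313.

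Genes that work beside the chain were read from lists of related functions. No gene in these lists was called by edgeR, with or without the block. The tricarboxylic acid cycle and pyruvate dehydrogenase list had 18 of 19 genes measured and a median log2 difference of 0.08, with 10 higher and 8 lower. The mitochondrial ribosome and gene expression list had 73 of 80 genes measured and a median of 0.01, with 41 higher and 32 lower, and mitochondrial import had 18 of 18 with a median of -0.0055. Over these lists and the further chain genes, the blocked edgeR fit gave an unadjusted p under 0.05 to acdh-12, sco-1, hpo-18, ipgm-1 and trx-2 (higher) and to nuaf-3, sdha-2 and ymel-1 (lower). By list this was 1 higher and 1 lower of 9 further complex I genes, and 2 higher and 1 lower of 12 for complexes II to V. It was 1 of 15 in glycolysis, 1 of 8 superoxide and peroxide enzymes and 1 of 16 stress response genes. The other lists held none, and over all genes the share was 9.60%. Ubiquinone synthesis (6 of 7 measured), ADP/ATP and phosphate carriers (4 of 7), glycolysis (15 of 19), the mitochondrial stress response and proteases (16 of 19) and superoxide and peroxide enzymes (8 of 10) had medians of 0.14, 0.06, 0.03, -0.01 and 0.11. For all genes the median was -0.0045.

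Further subunits and assembly genes of the chain outside the 43 were read in the same way. Of 9 measured for complex I and 12 for complexes II to V, 3 and 6 lay above 0 in the fit with group only, and 5 and 8 in the blocked fit. In these lists sdha-2, the second gene for the flavoprotein subunit of complex II, had 123, 103.1, 112 and 130 CPM in spk-1(RNAi), against 150, 153, 160 and 161 CPM in control. Its 4 spk-1(RNAi) libraries all lay below its 4 control libraries, as in 33 of all 5762 genes (1.04% of all genes were separated in either direction). The log2 difference was -0.42 ± 0.17 (SE) with an unadjusted p of 0.0314 in edgeR without the block and 0.00254 with it (adjusted p 0.240), and the adjusted p of DESeq2 with the block was 0.0758. Its paralog sdha-1 differed by 0.24 ± 0.35 (SE, log2) in the same fit without the block, and a difference between these paralogs was not tested. The complex IV copper factor sco-1 had 28.6, 55.8, 106 and 61.8 CPM in spk-1(RNAi), against 26.1, 40.2, 44.4 and 51.4 CPM in control. It was higher in 4 of 4 pairs, as were 9.63% of all genes, with an adjusted p of 0.408 in the blocked edgeR fit.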

How the data were processed

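The members and gene lists were chosen with earlier results of these data known. Per the file headers, the authors' junction table gives raw counts of reads over 20349 introns, of which 25 stood on both strands and were kept once. Of tools, TopHat 1.4.1 and Bowtie2 2.0.0 are listed in the submitters' processing notes, with build ce10 and no roles. What counted the reads, against which annotation, and how introns were picked for listing is not given in the sources used here. Every intron had at least 21 reads in every control library, whereas minima were 1 to 8 in spk-1(RNAi) libraries, so introns used mainly after spk-1(RNAi) are missing. The p-values of introns and exon bins, and the normalized mean signal of bins, are those of the authors' deposited tables, and the bins were tested with DEXSeq, per the name of the table. The deposited read ratios, whose headings name control first but which equal spk-1(RNAi) over control, were used to number columns: the heading of spk-1(RNAi) replicate 1 stood over 2 columns, whose reads gave the ratios of numbers 1 and 4 in 100% of introns and those of other numbers in at most 0.786%. No column of library values was left unused (0 columns).

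Sequence names were matched to symbols of a reference annotation of another build (5709 of 5762), which gave names, strands and neighbours only. Exons of 5 members overlap a gene on the same strand and of 8 members a gene on the opposite strand. Reads of a gene's introns were summed and tested over all genes with the quasi-likelihood test of edgeR 4.0.16 in R 4.3.3 (TMM scaling, filterByExpr, group as the only term, Benjamini-Hochberg adjustment, threshold 0.05), single introns likewise, and intron usage with diffSpliceDGE. Library totals of 1821717 to 47299659 junction reads set the counting error. Deviations of same-numbered libraries from their group means correlated at 0.88, 0.68, 0.71 and 0.75, so values with the number as a block stand beside the others. Across numbers, the correlation was 0.70 for spk-1(RNAi) 4 with control 3 and 0.68 for spk-1(RNAi) 3 with control 4. These values do not tell numbers 3 and 4 apart, and their pairing rests on the labels and the deposited ratios. The fits were tested on data simulated under the blocked model, with 200 features changed 2-fold. The introns changed were recovered in 0% without and 66.5% with the block. DESeq2 1.42.0, other scaling and filters, and left-out libraries were alternatives. Libraries were averaged as mean ± SD. Genes given in every library were the highest per intron in each complex, those with an unadjusted p under 0.05, paralogs, and isp-1, clk-1, mev-1, gas-1 and nuo-6; a few others were chosen after their values were seen. The authors' short junction list, part of the longer table, was not used. No sequences are printed, since none were used here.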

Additional observations from a re-analysis of the deposited data

Results flagged for a closer look

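Single libraries stood apart from the other 3 of their group, by Dixon's gap test at the 95% level, in 7 of the 86 combinations of a member and a group. For independent, normally spread values, chance alone flags about 1 in 20 such groups of 4. These libraries varied with replicate number and the share over all genes was not computed, so the count cannot be judged against chance. Of the 7 flagged, 3 concerned complex IV subunits in spk-1(RNAi) replicate 1. There cox-5A had 474 CPM (the others 946 to 969), cox-6C had 135 CPM (255 to 268) and cox-7C had 295 CPM (704 to 739). Control replicate 1 was also the lowest control library for all 3 of these subunits. In spk-1(RNAi) replicate 3, atp-3 of ATP synthase had 445 CPM, where the others had 299 to 321 CPM. In control replicate 1, gas-1 of complex I had 52.9 CPM (the others 38.4 to 40.5) and ucr-2.3 of complex III had 188 CPM (80.0 to 90.8). In control replicate 4, the copper delivery factor cox-11 had 16.2 CPM, where the others had 22.4 to 23.7 CPM.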

How the results depend on the processing

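Members called stayed at 0 in all 25 settings of the gene fit, and at 0 in all 14 settings for introns and for intron usage. The replicate block left 0 genes called in edgeR, against 14 introns and 3 genes in the usage test over all genes. The count of all genes called was 7 with pairs 3 and 4 alone, 5 and 7 with the replicate block without replicate 1 or 2 of both groups, and 51 in DESeq2 with the block, where the fit with group only called 0. Pairs 3 and 4 alone called 55 introns and 20 genes in the usage test, against 0 and 1 in the fits with group only. The cause of these differences was not tested. The median log2 fold change of members, 0.05, ran from -0.06 to 0.16 with single libraries left out and from -0.08 to 0.16 over all settings, on both sides of 0, and was 0.04 with the replicate block. The lowest adjusted p of a member named with its alternatives was 0.085, for nuo-2 in DESeq2 with the block, whose log2 difference ran from 0.22 to 0.80; that of cox-17 ran from -1.04 without spk-1(RNAi) replicate 4 to -0.15 without control replicate 4. Libraries 1 and 2 limit the precision of low genes such as cox-10.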
